A study of Mus musculus with 6 samples.

Results

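The histone genes of the Hist clusters were taken as every gene of the count table whose name starts with Hist1h, Hist2h, Hist3h or Hist4, whatever its biotype, which gave 70 of the 54532 genes listed. By name they were 6 genes for the linker histone H1, 20 for H2A, 19 for H2B, 12 for H3 and 13 for H4. Of the 70 genes, 67 were annotated as protein coding, Hist1h2al and Hist3h2bb-ps as processed pseudogenes and Hist1h2aj as an unprocessed pseudogene. They were counted in RNA-seq of whole hearts from 3-month-old male mice, 3 mice per genotype. The α1r/rα2s/s hearts (resistant, mice 368, 369 and 370) carried the wild-type mouse Na/K-ATPase α1, which is resistant, and the α1s/sα2s/s hearts (sensitive, mice 379, 380 and 381) carried an α1 with a pair of amino acid substitutions that raise its affinity for cardiotonic steroids such as ouabain. The substitutions were introduced into the α1 gene itself, so that every cell type of the heart carried them. All 6 mice had the sensitive α2 (α2s/s) and were on a C57BL/6 background, with no treatment given for them. The study names littermates as controls in its methods and describes the mice of the RNA-seq as age-matched. The litter of each heart was not given in the sources used here.

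The genes of the Hist clusters encode the replication-dependent histones. H2A, H2B, H3 and H4 form the core of the nucleosome, and H1 binds the linker DNA between nucleosomes. Most of these genes have no intron and are transcribed in S phase, and their mRNAs end in a conserved stem-loop, bound by the protein SLBP, in place of a poly(A) tail. Histone variants encoded elsewhere in the genome, such as H3.3, are made through the cell cycle from ordinary polyadenylated mRNAs. Some cluster genes also give polyadenylated transcripts in cells that have left the cycle, which is the state of most adult cardiomyocytes.

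On GRCm38 the genes lay in 6 places. The Hist1 name covered 56 genes, all on chromosome 13, with 24 between 21715763 and 22043676, 31 between 23531050 and 23934851, and Hist1h2al alone at 51202727 to 51203065. The 10 Hist2 genes lay on chromosome 3 from 96219865 to 96270132, the 3 Hist3 genes on chromosome 11 from 58948920 to 58956830, and Hist4h4 on chromosome 6. All 70 genes had the same position in GENCODE M21.

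The stem-loop is the sequence that sets these mRNAs apart, and it was searched on the sense strand of the GENCODE M21 transcripts as the 16-base histone stem-loop, a stem of 6 base pairs around a loop of 4 bases. It was found in 46 of the 70 genes and in 40 (0.0722%) of 55380 other genes. The search pattern itself fixed some pairs of the stem and set a pyrimidine against a purine at the rest. In each of the 46 genes all 6 pairs were complementary, of which only the pairs not fixed could have failed. 26 genes of types H1, H2A, H2B and H3 shared 1 form, and 7 genes of type H4 shared another. The windows of the H1 and H4 genes with the most counts, and of the H3 and H2B genes whose levels did not overlap between genotypes, are given with the stem-loop in capitals and on the sense strand, since their annotated transcripts differ in how far they run on after it.
Hist1h1c, chr13:23739507-23739532: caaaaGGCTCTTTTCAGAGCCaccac
Hist1h4h, chr13:23531453-23531478: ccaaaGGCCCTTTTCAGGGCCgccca
Hist1h3d, chr13:23576239-23576264: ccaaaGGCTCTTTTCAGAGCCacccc
Hist1h2bg, chr13:23571838-23571863: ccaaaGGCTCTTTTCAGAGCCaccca
The annotated transcript went on for 840 bases after the stem-loop in Hist1h1c, 46 bases in Hist1h4h, 752 bases in Hist1h3d and 155 bases in Hist1h2bg. Of the 24 genes without a match, 15 were annotated with at most 2 bases after the stop codon, so the window where the element would lie was not annotated, and the 3 pseudogenes had no annotated stop codon. Hist1h2bc and Hist2h2be were annotated with 742 and 2192 bases after the stop codon and held no match, which says only that these letters were not in the annotated transcript.

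Counts on these genes were unevenly spread. No count was found in any heart for 25 genes, 13 had 1 to 9 counts in all hearts together and 32 had at least 10. Hist1h1c and Hist1h2bc alone took 71.5% of the counts. By type, H1 took 47.4%, H2B 35.2%, H4 11.02%, H2A 4.65% and H3 1.74%. Per kilobase of annotated length, the mean level over the 6 hearts was 47.5 CPM (counts relative to the effective library size) for Hist1h1c, 35.8 for Hist1h2bc, 31.2 for Hist1h4h, 6.53 for Hist1h2al, 3.55 for Hist2h2be, 1.92 for Hist1h4i and 1.70 for Hist3h2a, and below 1 for every other member. The 24 genes whose annotated transcript extended more than 60 bases past the stem-loop had a median of 52 counts in all hearts together, and 4 of them had none. The 22 genes whose transcript ended within 60 bases of it had a median of 1 count, and 11 had none. Hist1h4h, with 1754 counts, was the exception in the latter class, where the next gene had fewer than 50. It was also the only gene of that class with a poly(A) signal, AATAAA or ATTAAA, annotated after the stem-loop. The former class held genes with such a signal, as Hist1h1c, and without it, as Hist1h3d. The part of this signal in the counts was not tested. Whether the libraries were selected for poly(A) tails was not given in the sources used here, beyond the series' own word mRNA, so the part of library preparation in these levels was not tested.

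**Figure D1:**
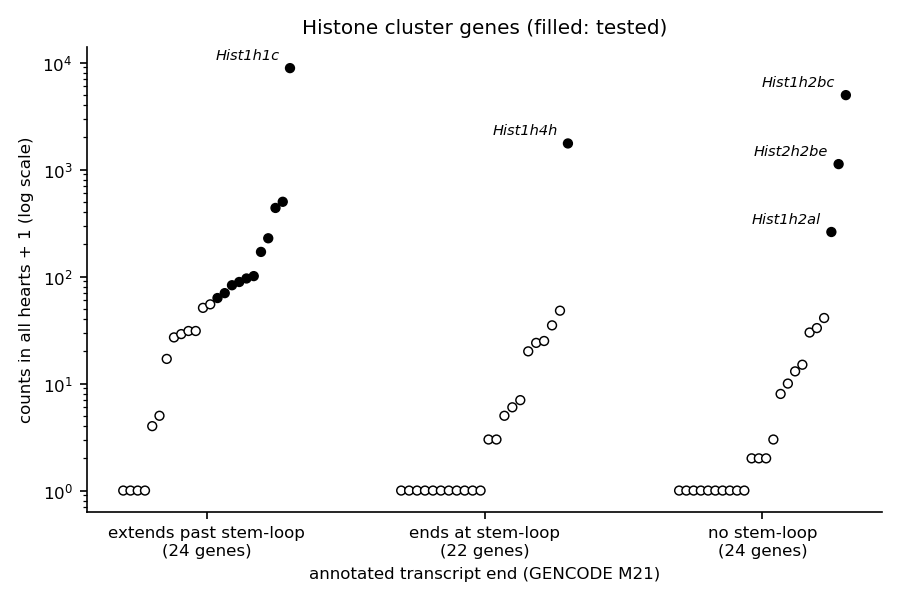
Counts of each of the 70 genes summed over the 6 hearts, plus 1, on a log axis, by how the annotated transcript ends, with genes that passed the filter on low counts filled. Genes whose transcript extends past the stem-loop have a median of 52 counts and those that end at it a median of 1, with Hist1h4h at 1754 as the exception. The classes also differ in how much sequence they share with other genes.

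Near-identical copies limited what could be counted. A stretch of 50 bases was called unique where no transcript of another annotated gene held it on either strand, genes annotated over the same bases included. Among the 13 genes with under 10% unique stretches, 10 had no count, against 8 of 23 genes with 10 to 50% and 7 of 34 genes with at least 50%. Within the last group, the 21 genes whose transcript extended past the stem-loop had a median of 54 counts, and 3 had none. The 6 whose transcript ended at it had a median of 4.5 counts, and 2 had none. Shared sequence and transcript end were thus not separate, and their parts in the counts were not tested. Hist2h2aa1, Hist2h2aa2, Hist2h3c1, Hist2h3b and Hist2h2bb had no unique stretch and no count in any heart. A count of 0 on such a gene does not show that it was silent, because how reads matching several genes were counted was not given in the sources used here.

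The genotypes were compared by edgeR's quasi-likelihood test on all 14866 genes that passed a filter on low counts, with Benjamini-Hochberg adjustment over all of them and a threshold of 0.05. Each heart had between 19309312 and 20470065 counts in all. 15 of the 70 histone genes passed the filter, 11 of Hist1, 3 of Hist2 and 1 of Hist3, and the other 55 are given as counts with no test. Of the 15, 2 were called higher in sensitive hearts, Hist1h2al and Hist1h4h, and none lower, while 4 had an unadjusted p under 0.05, against 14.5% of all genes tested, and DESeq2 called 1 gene lower. Over all genes tested, 0.780% were called higher and 0.659% lower, and 1.44% in either direction. The log2 fold change was positive for 9 of the 15 and negative for 6, with a median of 0.11 against -0.01 over all genes tested. A member could pass the filter through the level of 1 genotype alone, as Hist1h2al did, so these counts describe the tested genes and not the set of 70. All CPM were scaled by TMM, and fold changes are given as sensitive over resistant hearts.

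**Figure D2:**
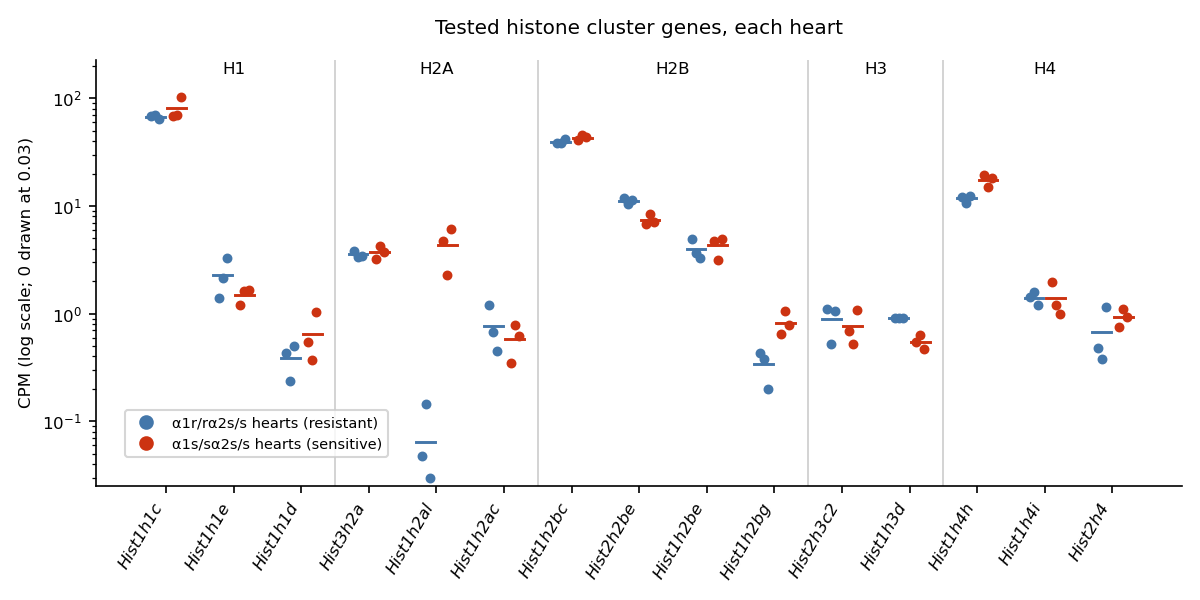
Level of the 15 tested histone cluster genes in each heart in CPM on a log axis, by histone type, with 1 point per heart and a line at the mean of 3 hearts of each genotype. Hist1h2al lies at 0 to 0.143 CPM in resistant and 2.26 to 6.07 CPM in sensitive hearts, and most other genes overlap between genotypes.

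Hist1h2al, named as an H2A gene and annotated as a processed pseudogene, showed the largest difference of the 15. It had 1, 3 and 0 counts in resistant hearts 368, 369 and 370 and 96, 43 and 117 counts in sensitive hearts 379, 380 and 381. Every sensitive heart was above every resistant heart, and heart 380 was the lowest of the sensitive hearts. The mean level was 0.0637 ± 0.0730 CPM (SD, n = 3) in resistant and 4.37 ± 1.93 CPM (SD, n = 3) in sensitive hearts. The log2 fold change was 5.95 (SE 0.617, edgeR adjusted p = 0.00028). Summed over hearts, 256 counts against 4 gave a ratio of 67.7 with a 95% interval of 26.1 to 250.3, which covers counting error only. The call was made in each of the 11 alternative settings that gave it a value, the 6 that left out 1 heart included, over which the log2 fold change ran from 5.43 without heart 370 to 7.16 without heart 369. DESeq2 gave it no adjusted p, and requiring 10 counts in every heart removed it from the test.

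Hist1h2al is a single exon of 339 bases (ENSMUSG00000091383) on the minus strand, and RefSeq lists it as H2af-ps2, a transcribed pseudogene, at 51200084 to 51203066 on chromosome 13. Its sequence was compared with those of the other H2A genes, since shared reads bear on its count. It was identical to Hist2h2aa1 and to Hist2h2aa2 at 337 of 339 positions (99.4%), to Hist2h2ac at 333 (98.2%) and to the next H2A gene at 314 (92.6%). From Hist2h2aa1 and Hist2h2aa2 it differed by the substitutions C120T and T216G, with positions counted from 1 at its 5′ end and the base of Hist1h2al first. The 41 bases around each of these positions are shown on the sense strand. They are where a read could tell Hist1h2al from Hist2h2aa1 and Hist2h2aa2. Hist2h2ac has the base of Hist1h2al at position 120, and some of its differences, as at positions 3 and 297, lie outside these windows. Capitals mark position 120 and any base that differs from Hist1h2al.
Hist1h2al, chr13:51202926-51202966: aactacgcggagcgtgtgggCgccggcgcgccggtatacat
Hist2h2aa1, chr3:96245695-96245735: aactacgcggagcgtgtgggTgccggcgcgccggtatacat
Hist2h2aa2, chr3:96240096-96240136: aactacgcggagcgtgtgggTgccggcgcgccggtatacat
Hist2h2ac, chr3:96220690-96220730: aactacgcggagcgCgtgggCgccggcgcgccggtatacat
Around position 216, capitals mark that position and any base that differs from Hist1h2al.
Hist1h2al, chr13:51202830-51202870: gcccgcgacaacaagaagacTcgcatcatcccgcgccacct
Hist2h2aa1, chr3:96245791-96245831: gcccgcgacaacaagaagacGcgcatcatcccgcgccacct
Hist2h2aa2, chr3:96240000-96240040: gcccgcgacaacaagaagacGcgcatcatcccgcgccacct
Hist2h2ac, chr3:96220594-96220634: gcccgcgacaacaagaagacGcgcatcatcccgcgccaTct
Of the stretches of Hist1h2al, 32.4% of those of 50 bases and 80.8% of those of 100 bases were unique, so some of its reads had a place of their own and others did not. Hist2h2aa1 and Hist2h2aa2 had 0 counts in all 6 hearts and no unique stretch of 50 bases. Their counts therefore cannot show whether reads moved between them and Hist1h2al. Reads from these genes that landed on Hist1h2al cannot be told apart from its own in a table of counts.

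None of the tested neighbours of Hist1h2al was called. Of 18 other genes listed within 500 kb, 5 were tested by edgeR, with log2 fold changes from -0.61 to 0.12 and a smallest adjusted p of 0.0552. Gm44341, the gene that overlaps its exon on the opposite strand, had 1 count, in heart 381, and 0 in the other hearts. Of 6 testis germ cell markers, from a tissue that makes its own histone variants, Prm1, Prm2, Tnp1 and Tnp2 were at 0 in all hearts, Ddx4 had 3 to 16 counts per heart and Sycp3 13 to 27. The list summed to 0.904 to 1.86 CPM in resistant and 1.24 to 1.63 CPM in sensitive hearts.

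Hist1h4h, 1 of the genes for histone H4, had 255, 222 and 249 counts in resistant hearts and 394, 285 and 349 in sensitive hearts. Its level was 12.2, 10.6 and 12.5 CPM in resistant hearts 368, 369 and 370 against 19.6, 15.0 and 18.1 CPM in sensitive hearts 379, 380 and 381. The genotypes did not overlap. The mean rose from 11.8 ± 1.02 to 17.6 ± 2.33 CPM (SD, n = 3 each), a log2 fold change of 0.58 (SE 0.129, edgeR adjusted p = 0.0375). DESeq2 gave an adjusted p of 0.0122, and 8 of 13 alternatives called the gene. Of the 6 settings that left out 1 heart, only the one without heart 380 called it, and the adjusted p ranged from 0.0302 to 0.132 over the 6. Of the stretches of Hist1h4h, 54.2% of those of 50 bases and 61.5% of those of 100 bases were unique. The part of shared reads in its counts was not tested.

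The other H4 genes had few counts. Hist1h4i had 30, 33 and 24 counts in resistant and 40, 23 and 19 in sensitive hearts, with a log2 fold change of -0.01 (SE 0.374). Hist2h4 had 10, 8 and 23 against 15, 21 and 18 counts, with a log2 fold change of 0.47 (SE 0.501). Without heart 370 the value of Hist2h4 was 1.10, and without heart 369 it was 0.19. Neither gene was called by edgeR, and both overlapped between genotypes. Of the H4 genes that did not pass the filter, Hist1h4m had 4, 0 and 0 counts in resistant and 5, 10 and 5 in sensitive hearts and did not overlap. Hist1h4k had 5, 4 and 1 against 1, 7 and 11 counts, Hist1h4c had 3, 5 and 4 against 2, 4 and 10, and Hist1h4d had 1, 4 and 0 against 4, 0 and 7. Summed over the 13 H4 genes, the level was 14.8, 13.3 and 15.2 CPM in resistant and 23.0, 18.9 and 21.8 CPM in sensitive hearts, a ratio of the means of 1.47. Without Hist1h4h, the other 12 genes together had 54, 56 and 54 counts in resistant and 69, 74 and 72 in sensitive hearts. On that sum the mean was 2.66 ± 0.0695 against 3.68 ± 0.237 CPM (SD, n = 3 each), and the genotypes did not overlap. Sums over these genes are described with no test.

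Among the H2B genes, Hist1h2bc had the most counts and Hist2h2be the smallest p. Hist1h2bc had 804, 804 and 830 counts in resistant and 827, 863 and 836 in sensitive hearts, and the levels overlapped, with a log2 fold change of 0.13 (SE 0.0810, edgeR adjusted p = 0.484). Hist2h2be had 248, 218 and 225 counts in resistant hearts and 138, 159 and 136 in sensitive hearts. Every sensitive heart was below every resistant heart. Its mean was 11.2 ± 0.720 CPM in resistant and 7.42 ± 0.821 CPM in sensitive hearts (SD, n = 3 each), a log2 fold change of -0.59 (SE 0.144). The edgeR adjusted p was 0.0563, which missed the threshold, and DESeq2 gave 0.0409, in a fit that called 1.37% of 11244 genes lower. Of the 13 alternatives, 4 called it lower, and none of the 6 that left out 1 heart did so (adjusted p from 0.0706 to 0.213). All of the 50-base stretches of Hist2h2be were unique.

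Hist1h2be had 104, 77 and 66 against 96, 60 and 96 counts, a log2 fold change of 0.11 (SE 0.244), which turned negative without heart 370 or heart 381. Its exons overlap those of Hist1h1e on the same strand. Hist1h2bg had 9, 8 and 4 counts in resistant and 13, 20 and 15 in sensitive hearts, with no overlap. Its log2 fold change was 1.27 (SE 0.514, edgeR adjusted p = 0.271) and the gene was not called. Of the H2B genes outside the filter, Hist1h2bh had 3, 5 and 13 against 18, 6 and 9 counts, Hist3h2ba had 2, 6 and 4 against 7, 11 and 0, and Hist1h2bj had 6, 2 and 3 against 5, 5 and 2. Hist1h2bb had 2, 4 and 1 against 3, 4 and 5 counts, Hist1h2bn had 0, 2 and 2 against 0, 8 and 0, and the pseudogene Hist3h2bb-ps had 1, 2 and 0 against 4, 6 and 1. The sum of all 19 H2B genes was 56.3, 53.9 and 57.7 CPM in resistant and 55.2, 60.1 and 57.1 CPM in sensitive hearts and overlapped. Its log2 ratio of 0.04 turned to -0.04 when library totals were used without TMM. Without Hist1h2bc the sum was 17.9, 15.5 and 15.98 against 14.1, 14.7 and 13.7 CPM, lower in every sensitive heart, and Hist2h2be made up most of that sum.

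**Figure D3:**
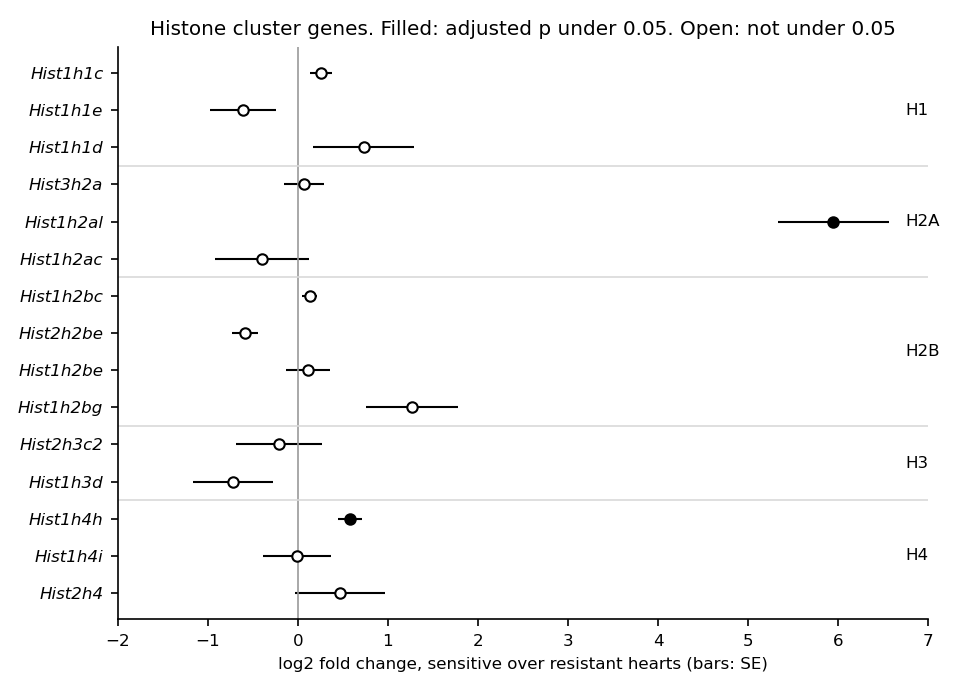
Log2 fold change of each tested histone cluster gene, sensitive over resistant hearts, with its SE as a bar, grouped by histone type. Only Hist1h2al (5.95) and Hist1h4h (0.58) are filled for an edgeR adjusted p under 0.05, and Hist2h2be at -0.59 is open with 0.0563.

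Linker histone counts came mostly from Hist1h1c, which encodes H1.2. It had 1424, 1464 and 1285 counts in resistant hearts and 1373, 1327 and 2003 in sensitive hearts. Heart 381 stood above the other 5, at 103.9 CPM against 64.6 to 69.9 CPM. The mean was 67.5 ± 2.72 CPM in resistant and 80.6 ± 20.2 CPM in sensitive hearts (SD, n = 3 each), with a log2 fold change of 0.26 (SE 0.126, edgeR adjusted p = 0.370). Without heart 381 the log2 fold change was 0.03, so the difference in the means rested on that heart. Hist1h1e, for H1.4, had 29, 45 and 66 counts in resistant and 24, 31 and 32 in sensitive hearts, a log2 fold change of -0.61 (SE 0.365). Hist1h1d, for H1.3, had 9, 5 and 10 against 11, 7 and 20 counts, a log2 fold change of 0.73 (SE 0.560). Without heart 370 the value of Hist1h1e was -0.24, and without heart 381 that of Hist1h1d was 0.23. Both genes overlapped between genotypes and neither was called by edgeR. The sum of the 6 H1 genes was 69.8, 72.3 and 68.5 CPM in resistant and 70.3, 71.8 and 106.9 CPM in sensitive hearts, and its log2 ratio of 0.24 was 0.02 without heart 381.

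The remaining H2A genes did not follow Hist1h2al. Hist3h2a, whose exons overlap those of Trim17 on the same strand, had 80, 71 and 69 counts in resistant and 65, 80 and 72 in sensitive hearts, with a log2 fold change of 0.06 (SE 0.223). Hist1h2ac had 25, 14 and 9 against 7, 15 and 12 counts, with a log2 fold change of -0.40 (SE 0.521). Outside the filter, Hist1h2ad had 6, 9 and 4 against 8, 12 and 8 counts, Hist1h2af had 3, 3 and 13 against 5, 6 and 10, and Hist1h2ae had 1, 6 and 2 against 7, 11 and 3. All 20 H2A genes together were at 5.59, 5.06 and 4.87 CPM in resistant and 9.43, 8.84 and 11.5 CPM in sensitive hearts, a ratio of the means of 1.92. Without Hist1h2al the other 19 were at 5.11 ± 0.371 and 5.56 ± 0.960 CPM (SD, n = 3 each) and overlapped, a ratio of 1.09.

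H3 was the type with the fewest counts. Hist1h3d had 19, 19 and 18 counts in resistant and 11, 12 and 9 in sensitive hearts, with no overlap, a log2 fold change of -0.72 (SE 0.442) and an edgeR adjusted p of 0.484. Hist2h3c2 had 23, 11 and 21 against 14, 10 and 21 counts, a log2 fold change of -0.21 (SE 0.477). Outside the filter, Hist1h3f had 4, 6 and 11 against 6, 2 and 21 counts, Hist1h3g had 3, 6 and 6 against 2, 2 and 15, Hist1h3i had 4, 2 and 4 against 5, 14 and 3, and Hist1h3e had 8, 6 and 4 against 7, 1 and 0. The sum over the 12 H3 genes was 2.85 ± 0.423 CPM in resistant and 2.76 ± 0.737 CPM in sensitive hearts (SD, n = 3 each) and overlapped.

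**Figure D4:**
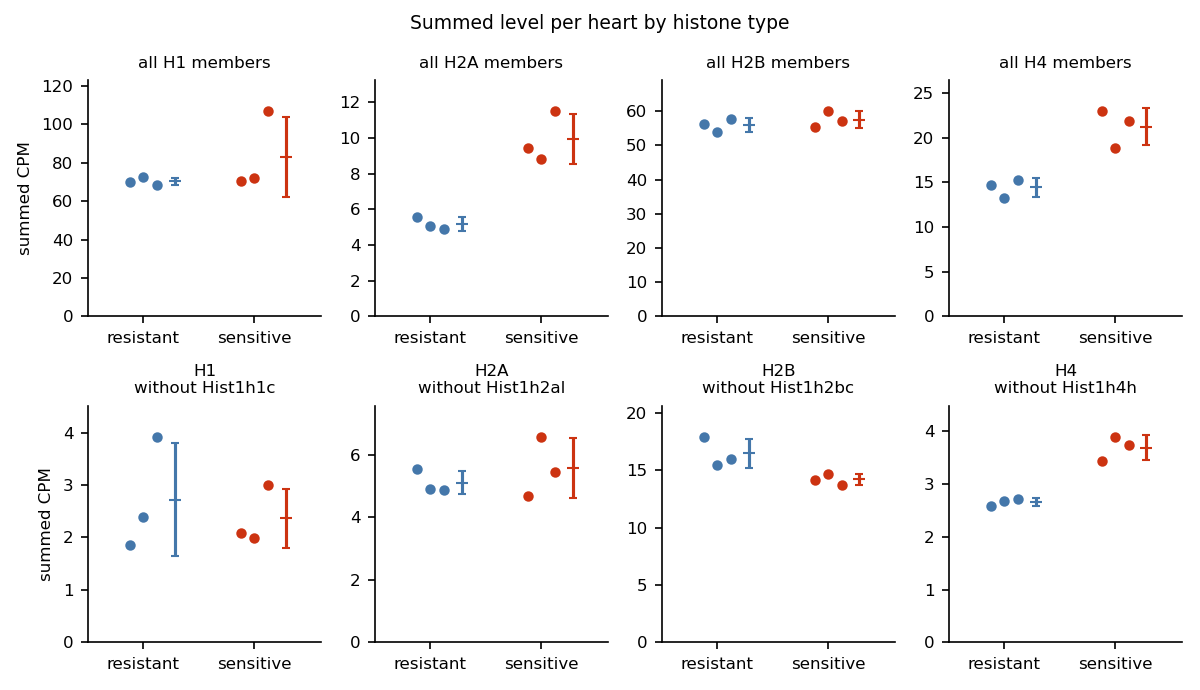
Summed CPM per heart of the H1, H2A, H2B and H4 genes (upper row) and the same sums without 1 named gene (lower row), on linear axes from 0, with points for hearts and bars for mean ± SD of 3 hearts. H2A and H4 lie higher in sensitive hearts, H2A overlaps once Hist1h2al is left out, and H4 without Hist1h4h still lies at 3.43 to 3.89 against 2.58 to 2.71 CPM.

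By cluster, the sums moved in different directions. Hist2 was at 13.5, 11.3 and 13.5 CPM in resistant and 8.34, 10.05 and 9.08 CPM in sensitive hearts, a ratio of the means of 0.717 with no overlap. Without Hist2h2be, the other 9 Hist2 genes were at 1.58 ± 0.653 and 1.73 ± 0.270 CPM (SD, n = 3 each) and overlapped. Hist1 was at 132.0, 131.8 and 132.3 CPM in resistant and 148.3, 146.5 and 188.1 CPM in sensitive hearts, with a ratio of 1.22 and a log2 ratio of 0.29, which was 0.16 without heart 381. Hist3 was at 3.80 ± 0.150 and 4.22 ± 0.764 CPM (SD, n = 3 each) and overlapped. All 70 genes together were at 149.4, 146.9 and 149.5 CPM in resistant and 160.4, 161.8 and 200.9 CPM in sensitive hearts, a ratio of 1.17 and a log2 ratio of 0.23, which was 0.12 without heart 381.

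Among the genes too low to test, most means leaned to the sensitive hearts. Of the 17 with at least 10 counts, 16 had the higher mean CPM in sensitive hearts and 1, Hist1h3e, in resistant hearts, although the single genes overlapped between genotypes in all but Hist1h4m. Of the 13 with 1 to 9 counts, 11 had the higher mean in sensitive hearts. For comparison, 48.4% of all genes tested had a positive log2 fold change. The share of other untested genes with the higher mean in sensitive hearts was not counted. Without that share, these counts are not a result about the histone genes. The 55 untested genes together had 60, 74 and 76 counts in resistant and 107, 119 and 119 counts in sensitive hearts, or 3.41 ± 0.490 and 5.91 ± 0.524 CPM (SD, n = 3 each), a ratio of 1.74. The 13287 other untested genes with a count summed to 1419 ± 44.4 CPM in resistant and 1325 ± 24.6 CPM in sensitive hearts, a ratio of 0.933. Reads shared between near-identical genes can place 1 molecule on any of several of these members, and their part in this sum was not tested.

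Over the tested histone genes, 3 had every sensitive heart above every resistant heart (Hist1h2al, Hist1h4h and Hist1h2bg) and 2 had every sensitive heart below (Hist2h2be and Hist1h3d). Over all genes tested, 10.01% lay wholly above and 9.98% wholly below.

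Genes that work with these histones were described from 4 lists. None of the 12 tested replication-independent histone genes was called by edgeR, 2 had an unadjusted p under 0.05, where 14.5% of all genes tested did, and the median log2 fold change was -0.01. H1f0, the linker histone of differentiated cells, was at 89.5 ± 6.37 CPM in resistant and 75.3 ± 7.75 CPM in sensitive hearts (SD, n = 3 each), with no overlap and a log2 fold change of -0.25 (SE 0.0853, adjusted p = 0.183 by edgeR). H3f3a and H3f3b, which both encode H3.3, had log2 fold changes of 0.10 and -0.21, H2afz (H2A.Z) of 0.00, H2afx (H2A.X) of 0.08 and H2afj (H2A.J) of 0.24, none of them called. Per kilobase, H1f0 at 40.1 CPM and H3f3b at 31.5 CPM were near the levels of Hist1h1c and Hist1h4h.

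None of the 20 tested genes for factors that transcribe histone genes or cut their mRNAs was called by edgeR, 2 had an unadjusted p under 0.05, and the median log2 fold change was -0.01. Slbp, for the protein that binds the stem-loop, had a log2 fold change of -0.06 (SE 0.130), Npat, for the coactivator of histone transcription, of -0.02 (SE 0.110), and Casp8ap2, for its partner FLASH, of -0.09 (SE 0.127). Of 24 tested genes for histone chaperones and deposition, none was called, 3 had an unadjusted p under 0.05, and the median was 0.01. For both lists the shares over all genes tested were 1.44% called and 14.5% with an unadjusted p under 0.05. Asf1b, a chaperone of dividing cells, had a log2 fold change of 0.30 (SE 0.340).

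The H2A and H4 sums were higher in sensitive hearts, the Hist2 sum was lower, and the H1, H2B and H3 sums overlapped. Markers of S phase and mitosis leaned lower in sensitive hearts. Of 25 tested, 1 was called lower and none higher, 20 had a negative log2 fold change, 7 lay wholly below the resistant hearts and none above, and the median was -0.15. Over all genes tested, 0.659% were called lower, 51.6% had a negative log2 fold change and 9.98% lay wholly below. Top2a, the topoisomerase that separates chromosomes, had 132, 160 and 113 counts in resistant and 56, 60 and 76 in sensitive hearts, a log2 fold change of -0.99 (SE 0.211, edgeR adjusted p = 0.0318). The call was lost when heart 368, 369, 379 or 380 was left out. Mki67, for the proliferation antigen Ki-67, had 174, 214 and 193 against 114, 98 and 140 counts, a log2 fold change of -0.64 (SE 0.171, edgeR adjusted p = 0.0825), with no overlap. Pcna, the clamp of the replication fork, was wholly lower with a log2 fold change of -0.16 (SE 0.0874), and Rrm2, a subunit of ribonucleotide reductase, overlapped with -0.13 (SE 0.278). The summed level of the markers was 151.1 to 162.4 CPM in resistant and 127.6 to 137.7 CPM in sensitive hearts. In whole hearts, a change in the number of cycling cells and a change in the RNA of each cell cannot be told apart.

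**Figure D5:**
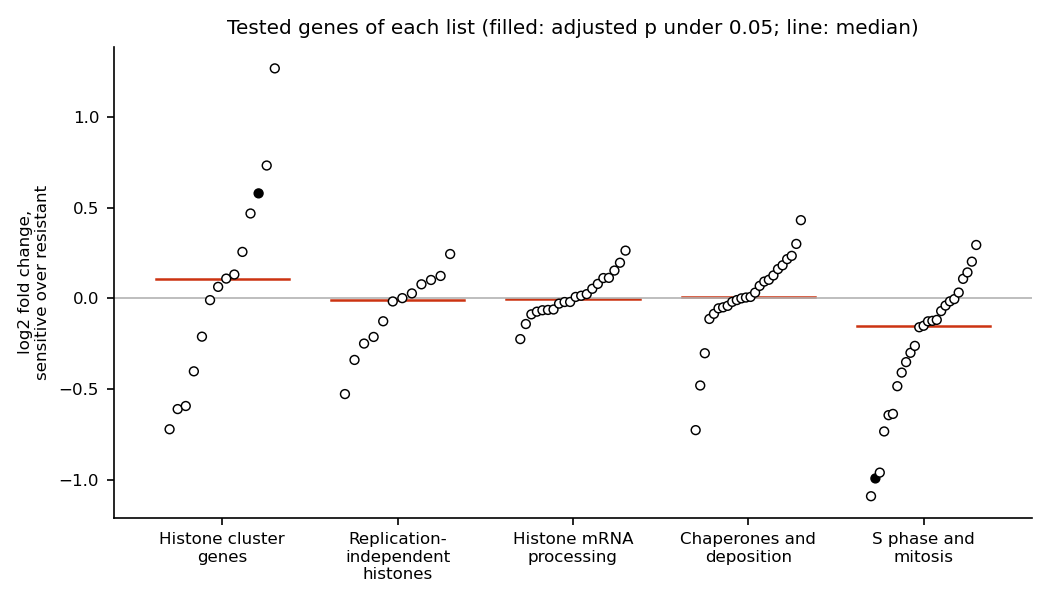
Log2 fold change, sensitive over resistant hearts, of the tested genes of the histone clusters and of 4 related lists, with a line at the median of each and filled points for an edgeR adjusted p under 0.05. Hist1h2al, at 5.95, is left off the axis but counts in the median of 0.11, and the S phase and mitosis markers have the lowest median, -0.15.

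Inside the spans of the histone clusters, none of the 5 tested genes outside the set was called by edgeR, with a smallest adjusted p of 0.187. That value was for Gm20633, whose exons overlap Hist2h2aa1 on the opposite strand. It had 18, 23 and 12 counts in resistant and 32, 27 and 52 in sensitive hearts, with no overlap between genotypes. Gm20632, opposite Hist2h2aa2, had 90, 59 and 54 against 82, 47 and 69 counts and overlapped. The part of these loci in the counts of Hist1h2al was not tested.

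The summed levels of 11 lists of cell type markers overlapped between genotypes. Summed cardiomyocyte markers were at 42438 to 52908 CPM in resistant and 46888 to 51017 CPM in sensitive hearts, and no gene of the 11 marker lists was called by edgeR. All 6 macrophage markers and all 6 smooth muscle and pericyte markers had negative log2 fold changes, with medians of -0.46 and -0.33. Of all genes tested, 51.6% had a negative log2 fold change. Tested markers lay wholly lower in sensitive hearts in the fibroblast (2 of 6), endothelial (2 of 6), macrophage (1 of 6) and neutrophil and mast cell (1 of 4) lists. Tested markers lay wholly higher in the platelet (2 of 3) and adipocyte (1 of 3) lists. By comparison, 9.98% of all genes tested lay wholly lower and 10.01% wholly higher. By list, macrophage markers summed to 158.5 to 245.3 CPM in resistant and 124.9 to 162.4 CPM in sensitive hearts and erythroid markers to 536.5 to 1273 and 401.3 to 3188 CPM. Heart 381, which was high in Hist1h1c, had the lowest sums of the 6 hearts for the erythroid (401.3 CPM), macrophage (124.9 CPM), endothelial (740.9 CPM), smooth muscle and pericyte (846.4 CPM) and neutrophil and mast cell (2.02 CPM) lists, and their part in its Hist1h1c level was not tested.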

How the data were processed

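RNA of 6 whole hearts, 3 per genotype, was sequenced by a company, which also mapped and counted the reads. The authors deposited raw counts per gene, without normalization. The submitters' processing notes name fastp, STAR, featureCounts and mm10, with no versions. Library selection, strand and the handling of reads matching several genes are not given in the sources used here. A deposited table of the authors' own DESeq2 comparison was not used.

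Counts were tested in R 4.3.3 with edgeR 4.0.16: TMM scaling, filterByExpr (minimum count 10, minimum total 15), quasi-likelihood test, adjustment over all 14866 genes tested. SE is the log2 fold change divided by the root of F. The biological coefficient of variation was 11.1%. The test was checked on simulated data. Hearts of the same genotype differed by 6.93 to 13.3 in chi-square per gene, so none was a copy of another. The labels number the mice but give no litter or processing batch. The p-values weigh the genotype difference against the spread between hearts of the same genotype, with spread estimates shared across genes. They cannot separate genotype from litter or batch. Intervals and floors cover counting error only. Sequences and transcript ends came from GENCODE M21, whose positions match those of the table, and the RefSeq entry was read from its GRCm38.p6 gene table. Protein sequences and the genome sequence were not used here.

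Named genes were every member that passed the filter, every member with at least 10 counts, called genes of the related lists and a fixed choice of other members of those lists. The members and lists were chosen with earlier results of these data known. Alternatives were RLE and upper-quartile scaling, no filter, 10 counts in every heart, DESeq2 1.42.0, edgeR's robust prior, omission of globin and mitochondrially encoded genes, and omission of each heart. Some planned single genes are not reported here.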

Additional observations from a re-analysis of the deposited data

How the results depend on the processing

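Hist1h2al was called higher in all 11 alternatives that gave it a value. The number of histone cluster genes called higher was 2, and it was 1 with at least 10 counts in every heart, where Hist1h2al was not tested, and 1 with DESeq2, which gave Hist1h2al no adjusted p. Leaving out 1 heart gave 1 to 2, and Hist1h4h was the gene lost without heart 368, 369, 370, 379 or 381. The number called lower was 0, and 1, Hist2h2be, with upper-quartile scaling, no filter, DESeq2 or the robust prior. For related genes called lower, the number was 1, and it was 2 with no filter and 0 to 1 when 1 heart was left out. Log2 fold changes near 0 changed sign when 1 heart was left out. Over the 6 omissions Hist1h2be ran from -0.0068 (without heart 381) to 0.3015 and was -0.0018 without heart 370, Hist3h2a ran from -0.0281 (without heart 380) to 0.1598, Hist1h4i from -0.3533 to 0.1881 (negative with all hearts, positive without heart 368, 369, 380 or 381), Hist2h3c2 from -0.5387 to 0.0028 (without heart 380) and Hist1h2ac from -0.6662 to 0.06 (without heart 368). None of these genes was called. The cause of these changes was not tested. The total of genes called was 214, and 400 with DESeq2, 618 with no filter and 80 to 158 without 1 heart. No paired analysis was possible because the labels number the mice singly and tie no heart of one genotype to a heart of the other. Depth limits the 55 untested genes, which had 0 to 54 counts each in all hearts together.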
